A study of Capra hircus with 6 samples.

Results

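The platelet-derived growth factor (PDGF) system is described here through its 4 ligand genes, *PDGFA*, *PDGFB*, *PDGFC* and *PDGFD*, and its 2 receptor genes, *PDGFRA* and *PDGFRB*. These 6 genes were taken by symbol from a table of 15944 goat genes, and all 6 were listed. The cells were secondary hair follicle dermal papilla cells (SHF-DPCs) of cashmere goats, mesenchymal cells from the base of the follicle that produces the fine undercoat. The question was which transcripts change when such cells are exposed to all-trans retinoic acid (ATRA), the active form of vitamin A that acts through nuclear retinoic acid receptors. The ATRA group (3 libraries) received 100 µM ATRA for 24 h, and the Control group (3 libraries) was cultured without ATRA. Both groups were primary cultures of wild type cells from the skin of adult goats aged 3 years, grown in DMEM/F-12 with 10% fetal bovine serum and used at passages 4 to 7. All 6 libraries carried the same batch label. The study's methods state that the cells came from independent animals, but not whether Control and ATRA libraries with the same number came from the same animal, so p-values describe the spread between these cultures. A single dose and a single time were sequenced.

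PDGF ligands are secreted dimers that bring a pair of receptor tyrosine kinases together at the cell surface. PDGFRα binds PDGF-A and PDGF-C, PDGFRβ binds PDGF-B and PDGF-D, and PDGF-B also binds PDGFRα. PDGF-A and PDGF-B are matured by intracellular proprotein convertases, whereas PDGF-C and PDGF-D are secreted with an inhibitory CUB domain that extracellular proteases remove. In skin the receptors are carried mainly by dermal fibroblasts, dermal papilla cells and vascular mural cells, and PDGF signalling is known for its part in mesenchymal growth and in the hair cycle.

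Totals were close, with 35532339 to 38012771 reads counted on genes per library. Of the genes listed, 12588 passed the expression filter, and 79.7% of these differed between the groups at an adjusted p under 0.05. Scaling between libraries mattered, because normalization factors by the trimmed mean of M values (TMM) were 0.842 to 0.851 in the Control libraries and 1.16 to 1.20 in the ATRA libraries. The median log₂ fold change (log₂FC, ATRA against Control) of all tested genes was 0.04 with these factors and 0.52 when only library size was used. The share of genes called was 40.9% higher and 38.7% lower with the factors, and 62.9% higher and 22.7% lower with library size only.

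The labelled cell type was compared with its markers. *ACTA2*, which encodes α-smooth muscle actin and is used to identify dermal papilla cells, had 200752 to 220329 reads in the Control libraries and 332 to 397 in the ATRA libraries. *PROM1*, which encodes CD133, another identification marker, had 0 or 1 read in every library, as did *ALPL* and *CORIN*. Other papilla markers were read often in the Control libraries, among them *VCAN* (49880 to 55062 reads), *BMP4* (12504 to 13147), *RSPO3* (8405 to 9076) and *TBX18* (3521 to 3953). Of 15 papilla markers found among the listed genes, 9 passed the expression filter. Among these, *FGF10* (65 to 97 reads in Control) and *SOX18* (8 or 9) were low. *CRABP1* (0 to 8 reads per library), *NOG* (2 to 13) and *SOX2* (0 to 16) did not pass, as was so for *PROM1*, *ALPL* and *CORIN*. The label is kept as the submitters gave it, with *PROM1*, *ALPL* and *CORIN* at or near 0 and *CRABP1*, *NOG* and *SOX2* too low to be tested.

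Of the 6 PDGF genes, 5 passed the filter and all 5 were lower in the ATRA libraries, where 38.7% of all tested genes were lower. DESeq2 and the t.test on log₂ values also called all 5 lower, so 0 were higher in any of these fits. Applying instead an absolute log₂FC above 1 with p under 0.05, 4 of the 5 were lower, against 17.3% of all tested genes. *PDGFRB* was the member left outside this fold rule. The counts of all 5 genes, scaled as counts per 1000000 reads (CPM), did not overlap between groups, which was also so for 39.0% of all tested genes in the lower direction and 41.2% in the higher direction, or 80.1% in either. Reads on the 6 genes made up 0.108% to 0.112% of all counted reads in the Control libraries and 0.0401% to 0.0439% in the ATRA libraries. In bulk RNA, fewer cells that carry a transcript and less of it per cell cannot be told apart.

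*PDGFRA*, the receptor for PDGF-A and PDGF-C, had 26427, 28290 and 27943 reads in the 3 Control libraries and 5249, 6222 and 5206 in the 3 ATRA libraries. Normalized levels were 851, 875 and 870 CPM in Control and 121, 141 and 126 CPM in ATRA. Every ATRA library lay far below every Control library, and the libraries within a group lay close together. The mean was 865 ± 12.2 CPM (SD, n = 3) in Control and 129 ± 10.3 CPM (SD, n = 3) in ATRA. *PDGFRA* was thus 6.68-fold lower with ATRA, with a log₂FC of -2.74 (SE 0.0660, adjusted p = 2.31e-17 by edgeR's quasi-likelihood test). Of the tested genes, 669 had a lower log₂FC than *PDGFRA*.

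*PDGFRB*, the receptor for PDGF-B and PDGF-D, had 6378, 6579 and 6765 reads in Control and 6355, 6724 and 6469 in ATRA. These raw counts overlapped between the groups. After TMM scaling the levels were 205, 203 and 211 CPM in Control and 147, 152 and 156 CPM in ATRA, and no longer overlapped. The means were 206 ± 3.71 CPM and 152 ± 4.67 CPM (SD, n = 3 each), a 1.36-fold lower level with ATRA. The log₂FC was -0.44 (SE 0.0536, adjusted p = 5.04e-07), and 3798 tested genes had a lower value. The direction for *PDGFRB* rested on the scaling, since with library size only the log₂FC was 0.04 (SE 0.0519, adjusted p = 0.526).

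**Figure D1:**
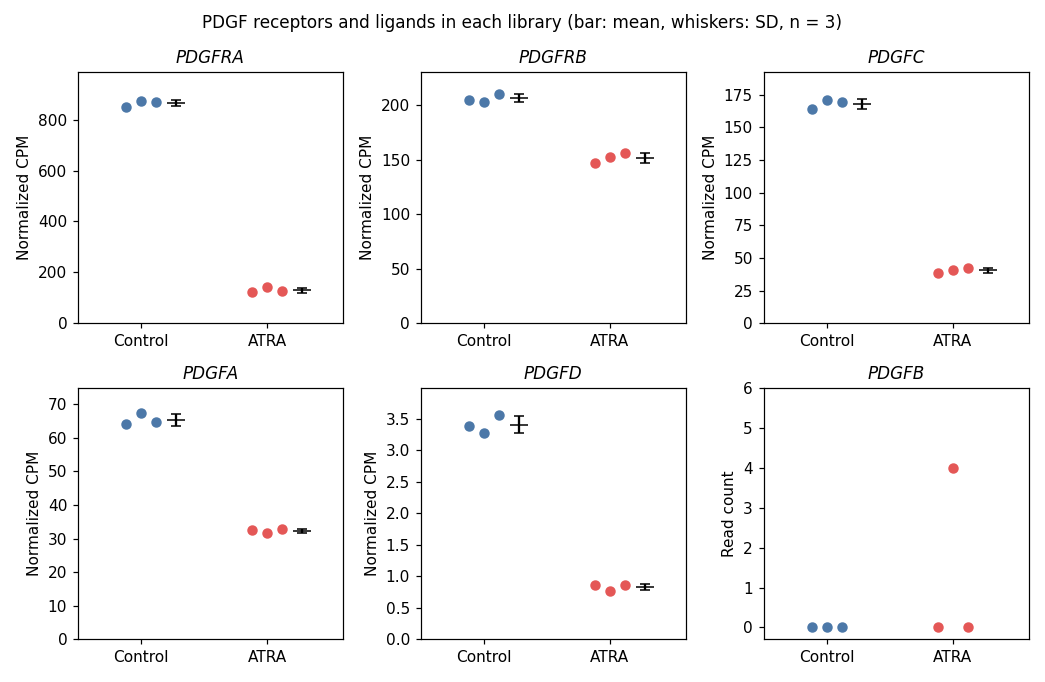
Levels of the 6 PDGF genes in each library, as TMM-normalized CPM on linear axes with a separate scale for each gene. Points are libraries (3 Control in blue, 3 ATRA in red), bars are means and whiskers are SD. *PDGFB* is drawn as raw read counts with no mean, since 5 of its 6 values are 0. In the other 5 panels every ATRA point lies below every Control point, with a wide gap for *PDGFRA* and *PDGFC* and a narrow one for *PDGFRB*.

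The ratio of the receptors to each other within a library does not depend on scaling between libraries. *PDGFRA* had 4.14, 4.30 and 4.13 reads for each *PDGFRB* read in the Control libraries and 0.826, 0.925 and 0.805 in the ATRA libraries. *PDGFRA* thus took 80.7% ± 0.347 of the reads on both receptors in Control and 46.0% ± 1.85 in ATRA (SD, n = 3 each). The log₂ ratio moved from 2.07 ± 0.0323 to -0.23 ± 0.107, a difference of -2.30 or 4.93-fold. The exact two-sided permutation test gave p = 0.1 (adjusted p = 0.1 over 3 ratios), the smallest value that 3 libraries against 3 can give. Because read number also depends on transcript length, a ratio of reads between genes is read here for its change between groups and not as a ratio of molecules.

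*PDGFC*, a ligand of PDGFRα that is secreted in latent form, had 5086, 5519 and 5442 reads in Control and 1649, 1810 and 1735 in ATRA. Its normalized levels were 164, 171 and 169 CPM in Control and 38.2, 41.0 and 41.9 CPM in ATRA. The groups were well separated, with means of 168 ± 3.61 CPM and 40.4 ± 1.97 CPM (SD, n = 3 each). The level was 4.16-fold lower with ATRA (log₂FC -2.06, SE 0.0608, adjusted p = 5.06e-16), and 996 tested genes had a lower log₂FC.

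*PDGFA*, the ligand that needs no extracellular activation to bind PDGFRα, had 1989, 2183 and 2080 reads in Control and 1407, 1397 and 1361 in ATRA. The levels were 64.1, 67.5 and 64.8 CPM in Control and 32.6, 31.7 and 32.9 CPM in ATRA. The groups did not overlap, either as reads or as CPM, and the means were 65.4 ± 1.80 CPM and 32.4 ± 0.628 CPM (SD, n = 3 each). *PDGFA* was 2.02-fold lower with ATRA (log₂FC -1.02, SE 0.0645, adjusted p = 5.35e-11), so it lay just inside the fold threshold. The log₂FC was -0.54 with library size only, -0.94 with upper-quartile scaling and -0.88 when each library was scaled to its *GAPDH* count, so that in these fits *PDGFA* was called lower but lay outside that threshold. It also lay outside it with the t.test on log₂(CPM + 1) (log₂FC -0.99) and, at -0.9996, without Control replicate 2.

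*PDGFD*, a latent ligand of PDGFRβ, was read far less often, with 105, 106 and 114 reads in Control and 37, 34 and 36 in ATRA. The levels were 3.38, 3.28 and 3.55 CPM in Control and 0.856, 0.771 and 0.870 CPM in ATRA. Every ATRA library was below every Control library. The level was 4.08-fold lower with ATRA (log₂FC -2.03, SE 0.205, adjusted p = 4.35e-08). Its standard error was the widest among the 5 members tested.

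*PDGFB*, the ligand of both receptors, had 0 reads in all 3 Control libraries and 0, 4 and 0 in the 3 ATRA libraries. It did not pass the filter, and no fold change is given. A count of 0 allows up to 3 reads, or 0.0694 to 0.0967 CPM over the libraries with 0 reads, for counting error only. *PDGFB* transcript was therefore at or near the limit of detection in both groups.

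The make-up of the ligand reads also differed between groups. *PDGFC* took 70.9% ± 0.303 of the reads on the 4 ligands in Control and 54.8% ± 1.33 in ATRA, and *PDGFA* took 27.6% ± 0.364 and 44.0% ± 1.31 (SD, n = 3 each). *PDGFD* made up 1.44% and 1.13% of them. The log₂ ratio of *PDGFC* to *PDGFA* reads was 1.36 ± 0.0252 in Control and 0.32 ± 0.0776 in ATRA, a difference of -1.04 or 2.06-fold. The exact permutation test again gave its smallest p of 0.1 (adjusted p = 0.1). The ratio of *PDGFD* to *PDGFB* had the same p, but is set by the pseudocount of 0.5 added to the 0 counts of *PDGFB*.

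**Figure D2:**
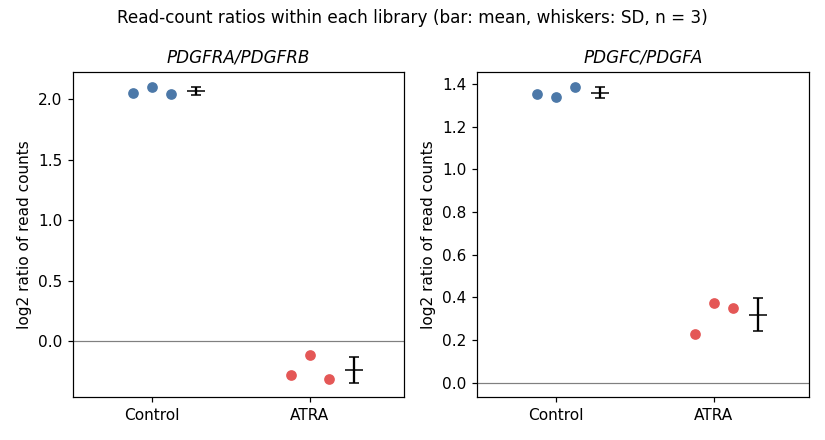
Log₂ ratio of reads within each library for *PDGFRA* to *PDGFRB* and for *PDGFC* to *PDGFA*, with 0.5 added to each count. Points are libraries, bars are means and whiskers are SD (n = 3). All 3 ATRA points of the receptor ratio lie below 0 and all 3 Control points lie above 2, and the ligand ratio is lower in every ATRA library.

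The scaling was varied to see how far each member depended on it. Over 5 other scalings the log₂FC ranged from -2.76 to -2.26 for *PDGFRA*, from -2.08 to -1.58 for *PDGFC*, from -2.05 to -1.55 for *PDGFD* and from -1.04 to -0.54 for *PDGFA*, and all 4 stayed called. For *PDGFRB* the range was -0.46 to 0.04. The t.test on log₂(CPM + 1), a scale that understates changes of low genes, gave -1.26 for *PDGFD*. Relative to the median of all genes in the same fit (0.52), the *PDGFRB* value of 0.04 with library size only lay as far below the centre as the TMM value did. A change of scaling shifts all genes by nearly the same amount, so this is not a separate check of the direction.

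**Figure D3:**
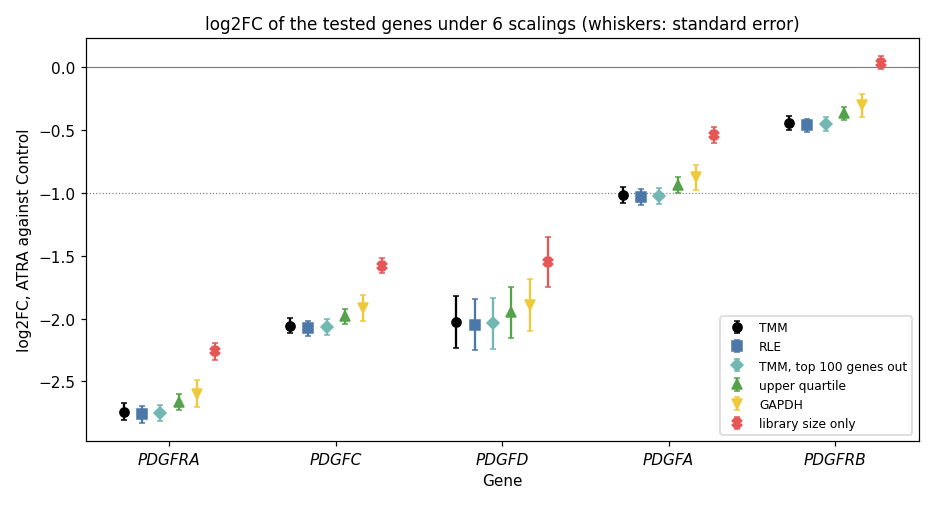
Log₂FC (ATRA against Control) of the 5 tested members under 6 scalings between libraries, drawn as separate symbols. Whiskers are standard errors, and the dotted line marks a log₂FC of -1. *PDGFRA*, *PDGFC*, *PDGFD* and *PDGFA* lie below 0 under every scaling drawn, and *PDGFRB* reaches 0.04 when only library size is used.

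**Figure D4:**
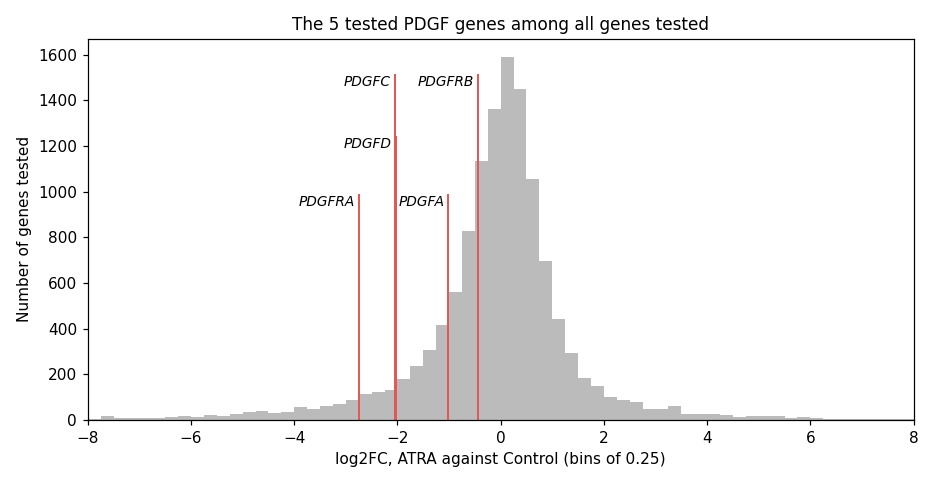
Histogram of log₂FC (ATRA against Control) over the 12588 tested genes, with the positions of the 5 tested PDGF genes marked. The axis runs from -8 to 8 and leaves out 59 genes beyond it. *PDGFRA* at -2.74, *PDGFC* at -2.06 and *PDGFD* at -2.03 lie in the lower flank, and *PDGFRB* at -0.44 lies near the centre.

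The next group process or bind PDGF ligands. Of 12 such genes tested, 7 were lower and 4 were higher, against 38.7% and 40.9% of all tested genes, and 1 was not called. Their median log₂FC was -0.43 (0.04 over all tested genes). *PLAT*, tissue plasminogen activator, which cleaves the CUB domain from PDGF-C, had 2031, 2303 and 2328 reads in Control and 136, 169 and 124 in ATRA. It fell from 69.7 ± 3.75 to 3.32 ± 0.445 CPM (SD, n = 3 each), with a log₂FC of -4.39 (SE 0.0974, adjusted p = 7.25e-18). *PCSK6*, a convertase of the furin family, fell from 158 to 8.83 CPM (log₂FC -4.16, SE 0.0729). *THBS1*, the matrix glycoprotein thrombospondin 1, fell from 27106 to 371 CPM (log₂FC -6.19, SE 0.103).

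The 4 genes of this list that rose had log₂FC values from 0.28 to 0.80. They included the convertases *PCSK5* (log₂FC 0.80, SE 0.229) and *PCSK7* (log₂FC 0.67, SE 0.0909) and the urokinase receptor *PLAUR* (log₂FC 0.58, SE 0.0653). The following were chosen after their values were seen. *PLAU*, the urokinase that can activate PDGF-D, was lower with a log₂FC of -1.93, and *SPARC*, which binds PDGF-B, was lower with a log₂FC of -3.61. *LRP1*, a PDGF co-receptor, and *FURIN* were lower by smaller amounts, with log₂FC values of -0.52 and -0.33. With library size only *LRP1* was not called (log₂FC -0.039, adjusted p = 0.56), and the list had 5 genes higher and 5 lower. The semaphorin and growth factor co-receptor *NRP2* was higher at 0.28, and *NRP1*, at -0.26, was not called.

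Relatives of the PDGF ligands and receptors did not share a direction. Of 7 tested, 1 was higher and 3 were lower, against 40.9% and 38.7% of all tested genes. The other 3 were not called, and the median log₂FC of the 7 was -0.02. With library size only, 4 were higher. *VEGFA*, the vascular growth factor structurally related to the PDGF ligands, had 5612, 5350 and 5913 reads in Control and 45655, 48180 and 47018 in ATRA. It rose from 177 ± 9.98 to 1095 ± 40.0 CPM (SD, n = 3 each), or 6.19-fold (log₂FC 2.63, SE 0.0637, adjusted p = 2.45e-17). Every ATRA library was above every Control library.

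*KITLG*, the ligand of the receptor KIT, had 1030, 1190 and 1027 reads in Control and 54, 98 and 57 in ATRA. It was 20.9-fold lower (log₂FC -4.39, SE 0.146, adjusted p = 6.31e-15). *PDGFRL*, a receptor-like gene without a kinase domain, had 329, 342 and 356 reads in Control and 38, 28 and 28 in ATRA. It was 14.7-fold lower (log₂FC -3.87, SE 0.162, adjusted p = 9.11e-14), and neither gene overlapped between the groups. The lymphatic growth factor *VEGFC* was lower by less, at 118 and 77.2 CPM (log₂FC -0.61).

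*CSF1*, the ligand of the macrophage receptor, was at 159 ± 12.3 CPM in Control and 157 ± 3.86 CPM in ATRA (log₂FC -0.02, adjusted p = 0.809). The VEGF receptor gene *FLT1* (log₂FC 0.13, adjusted p = 0.309) and the ligand gene *VEGFB* (log₂FC 0.16, adjusted p = 0.0927) were not called either, and the groups overlapped in all 3 of these genes. *CSF1R*, a receptor of the same class as the PDGF receptors, had 3 to 7 reads in each library and was not tested. The VEGF receptor gene *KDR* had 0 to 10 reads, and the ligand genes *PGF* and *VEGFD* had 0 to 3 and 0 to 5, and these were not tested. *KIT*, *FLT3* and *FLT4* were not listed.

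**Figure D5:**
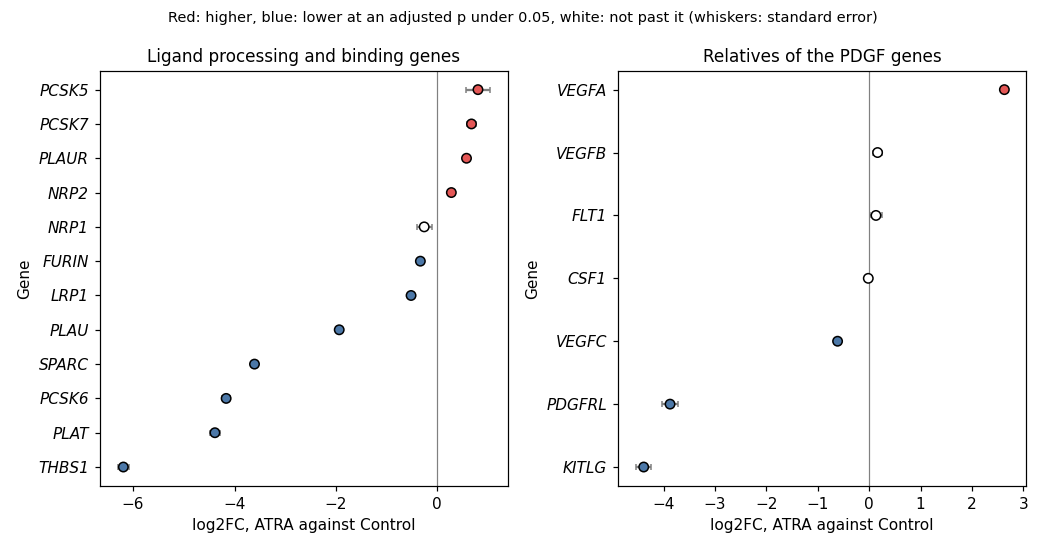
Log₂FC (ATRA against Control) of each tested gene that processes or binds PDGF ligands and of each tested PDGF-family relative. Whiskers are standard errors, and the colour marks whether a gene was called higher, lower or not called. *THBS1* at -6.19 is the lowest value drawn and *VEGFA* at 2.63 is the highest.

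Genes that act next to the activated receptors moved in both directions, as did the tested genes as a whole (40.9% higher, 38.7% lower). Of 26 adaptors and proximal effectors tested, 7 were higher, 11 were lower and 8 were not called, with a median log₂FC of -0.13. With library size only these counts were 18 higher and 5 lower. The phosphoinositide 3-kinase genes *PIK3CB*, a catalytic subunit, and *PIK3R1*, a regulatory subunit, rose with log₂FC values of 2.63 (SE 0.156) and 1.20 (SE 0.0674), whereas the regulatory subunit gene *PIK3R3* fell with a log₂FC of -1.41 (SE 0.131). The adaptor gene *SHC1* fell with a log₂FC of -1.05 (SE 0.0531). The exchange factor gene *VAV3* rose from 2 to 6 reads in Control to 24 to 44 in ATRA, so its log₂FC of 2.66 has a wide standard error of 0.473.

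Of 15 downstream GTPase and kinase genes, 3 were higher and 8 were lower, against 40.9% and 38.7% of all tested genes, and 4 were not called. Their median log₂FC was -0.23. None passed the fold threshold, which 13.7% of all tested genes passed upward and 17.3% downward. With library size only, 9 of the 15 were higher and 4 were lower. Those that rose included the kinases *BRAF* (log₂FC 0.98, SE 0.0823) and *ARAF* (log₂FC 0.40, SE 0.0713). The GTPase *NRAS* (log₂FC -0.88, SE 0.0642) fell, as did the kinase *MAPK3* (log₂FC -0.65, SE 0.0732).

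Among 15 negative regulators of receptor tyrosine kinase signalling, 6 were higher and 5 were lower, against 40.9% and 38.7% of all tested genes. The other 4 were not called, and the median log₂FC of the list was 0.12. With library size only, 14 were higher and 0 were lower, so the directions of the small changes rest on the scaling. *ERRFI1*, an inhibitor of the epidermal growth factor receptor, rose 5.93-fold from 73.4 ± 2.08 to 435 ± 4.46 CPM (SD, n = 3 each). *PTPRJ*, a phosphatase that acts on PDGFRβ, rose with a log₂FC of 1.47 (SE 0.0839), and *LRIG1*, a transmembrane inhibitor of receptor tyrosine kinases, rose with a log₂FC of 0.69 (SE 0.0574). The log₂FC of those that fell was no lower than -0.61, and they included the cytokine signalling suppressor *SOCS3* (log₂FC -0.61, SE 0.163), the adaptor *GRB10* (log₂FC -0.34, SE 0.0597) and the phosphatase *PTPN12* (log₂FC -0.29, SE 0.0688). *GRB10* and *PTPN12* changed sign with library size only, to 0.13 and 0.19.

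Genes known to respond to PDGF or serum changed in both directions, some by large amounts. Of 28 tested, 14 were higher, 13 were lower and 1 was not called, where 40.9% of all tested genes were higher and 38.7% were lower. Past the fold threshold 7 of the 28 were higher and 11 were lower, against 13.7% and 17.3% of all tested genes. The feedback phosphatase *DUSP4* rose from 83, 119 and 88 reads to 3543, 3961 and 3809 (log₂FC 4.86, SE 0.105). The feedback inhibitor *SPRY4* rose with a log₂FC of 4.34 (SE 0.129), and the growth factor *HBEGF* with a log₂FC of 4.12 (SE 0.132). In the other direction, the matrix glycoprotein gene *TNC* fell from 425205, 427576 and 448956 reads to 1400, 1415 and 1354 (log₂FC -8.72, SE 0.0806).

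The hyaluronan synthase gene *HAS2* fell from 1015, 953 and 1058 reads to 8, 7 and 3 (log₂FC -7.79, SE 0.173). The immediate early gene *EGR2* fell from 424, 470 and 552 reads to 15, 17 and 24 (log₂FC -5.11, SE 0.182). The groups did not overlap in *TNC*, *HAS2* or *EGR2*.

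The table also annotates genes with Gene Ontology (GO) terms that name PDGF. Of 45 such genes tested, not counting the members, 18 were higher and 23 were lower, against 40.9% and 38.7% of all tested genes. The other 4 were not called, and the median log₂FC was -0.26. *NDRG4* (log₂FC 3.20), the nuclear receptor gene *NR4A3* (log₂FC 2.17) and the transcription factor gene *CSRNP1* (log₂FC 2.01) rose the most. *APOD*, which encodes a secreted lipid-binding protein, had 27, 58 and 39 reads in Control and 1, 1 and 0 in ATRA. *COL1A1*, a fibrillar collagen gene, had a log₂FC of -5.62 (SE 0.0721), with 853351 to 884303 reads in Control and 23430 to 24253 in ATRA.

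The 6 tested genes annotated to PDGF binding were all lower, where 38.7% of all tested genes were lower. This group was chosen after the values were seen and leaves out the members. Of the 6, 5 were collagen genes, among them *COL1A2* (log₂FC -3.87, SE 0.0696) and *COL6A1* (log₂FC -3.01, SE 0.0618). *COL2A1*, also annotated to PDGF binding but too low to be tested, had 0 reads in each Control library and 7, 9 and 6 in the ATRA libraries.

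Most tested markers of the cell types that could carry PDGF receptors were lower, as were the members, and their part in the result was not tested. Over all tested genes 38.7% were lower and 40.9% were higher, which stands beside each marker count below. Of 12 fibroblast or general mesenchyme markers tested, 10 were lower and 0 were higher, and their summed level was 104200 to 104991 CPM in Control and 9231 to 9925 CPM in ATRA. *TWIST1* and *TWIST2*, transcription factor genes of this list, were not called, at log₂FC values of -0.14 and 0.02. Of 9 dermal papilla markers tested, 8 were lower and 0 were higher, with a summed level of 8621 to 9559 CPM in Control and 174 to 186 CPM in ATRA. The Control sum was mostly *ACTA2* (6582 CPM) and *VCAN* (1641 CPM). The fold threshold was passed by 6, while *LEF1* (log₂FC -0.54) and *FGF7* (-0.23) fell by less and *SOX18* (0.47) was not called. *SOX2*, too low to be tested, had 5, 0 and 2 reads in Control and 10, 16 and 9 in ATRA.

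Pericytes also carry PDGFRβ. All 3 pericyte markers tested were lower, where 38.7% of all tested genes were lower. The summed level over the listed markers was 928 to 1054 CPM in Control and 70.8 to 71.5 CPM in ATRA. This sum was mostly *CD248* (526 CPM in Control, 36.5 in ATRA) and *CSPG4* (381 and 14.4 CPM). The defining pericyte genes *RGS5* (0 to 5 reads), *KCNJ8* (0 or 1 read) and *MCAM* (1 to 4 reads) were at or near 0 in every library. The other way went *NDUFA4L2* (1, 5 and 1 reads in Control, 27, 10 and 9 in ATRA) and *ABCC9* (0, 1 and 0 reads in Control, 5, 10 and 13 in ATRA). Both were too low to be tested. Of 6 smooth muscle markers tested, 5 were lower and 0 were higher, with a summed level of 3281 to 3511 CPM in Control and 77.9 to 88.5 CPM in ATRA, and *MYH11* had 4 to 20 reads.

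The endothelial gene *PECAM1* had 0 reads in the 3 Control libraries and 242, 340 and 206 in the ATRA libraries, whereas *CDH5*, another defining endothelial gene, had 0 or 1 read throughout. Of 4 endothelial markers tested, 2 were higher and 1 was lower, against 40.9% and 38.7% of all tested genes. Their list had a summed level of 82.2 to 90.2 CPM in Control and 16.0 to 17.6 CPM in ATRA. This sum was mostly *ERG*, a transcription factor gene at 85.2 CPM in Control and 9.20 CPM in ATRA, whereas *TEK*, a receptor gene, rose from 0.619 to 1.13 CPM. Both leukocyte markers tested, *CD14* and *CD68*, were higher (summed level 9.27 to 12.9 CPM in Control, 41.3 to 44.2 CPM in ATRA). The other leukocyte genes *ITGAM* (0 to 2 reads), *CD3E* (0 to 5 reads) and *CSF1R* (3 to 7 reads) were too low to be tested. *PTPRC* and *LYZ* were not listed. Platelets and keratinocytes are known sources of PDGF ligands. Of 2 platelet or megakaryocyte markers tested, 1 was higher (summed level 2.53 to 3.16 CPM in Control, 8.23 to 10.4 CPM in ATRA). This sum was mostly *ITGA2B* (2.36 CPM in Control, 8.35 in ATRA), and *GP9* was not called. The platelet genes *PF4* and *GP1BA* had 0 or 1 read in every library. The single keratinocyte marker tested, *KRT10*, was higher (79 to 138 reads in Control, 231 to 252 in ATRA). The basal keratinocyte genes *KRT14* (20, 14 and 10 reads in Control, 3, 0 and 0 in ATRA) and *KRT5* (2, 7 and 3 reads in Control, 0 in each ATRA library) were too low to be tested. The summed level of the keratinocyte markers was 3.11 to 4.98 CPM in Control and 5.37 to 5.97 CPM in ATRA. Their part in the values of the ligands was not tested.

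The genes closest to each member in their pattern over the 6 libraries were sought among 8594 tested genes with a mean of at least 10 CPM. Likeness was the root-mean-square difference between log₂ levels, each centred on its own mean. *PID1* (0.0281) and *CDH11* (0.0335) were closest to *PDGFRA*, and *SNRPC* (0.0224) and *SMC1A* (0.0225) to *PDGFRB*. *KPNA2* (0.0313) and *FKBP9* (0.0342) were closest to *PDGFC*, *PTTG1IP* (0.0228) and *OAT* (0.0250) to *PDGFA*, and *ADM* (0.0446) and *TIMP2* (0.0462) to *PDGFD*. Between 735 and 1405 candidate genes had a Pearson correlation above 0.99 with a given member. The 6 libraries form 2 groups, so this mostly records a fold change of the same size, and ranking by Pearson correlation named none of the same genes.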

How the data were processed

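SHF-DPCs were sequenced as poly(A) libraries in 2 groups of 3. According to the study's methods, fastp and TrimGalore removed adapters and low-quality bases. The submitters' processing notes name HISAT2, featureCounts and DESeq2, while the genome build, annotation and strand setting are not given in the sources used here. The authors deposited whole-number read counts per gene, not normalized and not pooled. Library totals ran from 35532339 to 38012771 reads, and intervals and floors cover counting error only.

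Counts were filtered with filterByExpr, scaled by TMM and tested on all 12588 genes that passed, with edgeR's robust two-sided quasi-likelihood test (edgeR 4.0.16, R 4.3.3) and Benjamini-Hochberg adjustment. A gene was called at an adjusted p under 0.05. Standard errors are the absolute log₂FC divided by the square root of F. The study's methods name R's t.test, with an absolute log₂FC above 1 and p under 0.05. That test, on log₂(CPM + 1), was run as an alternative, as were DESeq2 (1.42.0), other scalings and filters, a replicate block and leaving out each library. Ratios were tested by exact permutation. On counts simulated for ATRA against Control over 12452 genes, 189 of 195 changed genes were recovered and 13 unchanged genes were called. Few genes were changed in that simulation, whereas 79.7% of the tested genes were called in these data. It therefore does not test the scaling between libraries, and it held no change as small as that of *PDGFRB*.

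The members and lists were chosen with earlier results of these data known. Each list is given by its counts, and named are the 3 called genes with the largest log₂FC in each direction, every PDGF-family relative and the 2 genes closest to each member. Some genes that this rule names are not reported here. Pairs of libraries within a group differed by more than sampling noise (chi-square per degree of freedom 5.16 to 19.2 over 6 pairs), so all were kept. Gene symbols were those of the table. Transcript lengths were not used, so where genes are set side by side the values are reads or CPM and not molecules.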

Additional observations from a re-analysis of the deposited data

How the results depend on the processing

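All 5 tested members were called lower in every alternative fit but the one with library size only, which called 4. The exception was *PDGFRB*, with a log₂FC of 0.036 there. Under that setting *GRB10* was at 0.13, *PTPN12* at 0.19, *NRP1* at 0.22, *FURIN* at 0.14 and *CSF1* at 0.46, each on the other side of 0. *CSF1*, which was not called, was also above 0 with upper-quartile scaling (0.060), with *GAPDH* scaling (0.13) and without Control replicate 3 (0.029). *GAPDH* scaling, and TMM scaling without the 100 most abundant genes, were chosen after seeing the data. Leaving out each library in turn gave log₂FC ranges of -2.82 to -2.70 for *PDGFRA*, -2.09 to -2.02 for *PDGFC*, -2.07 to -1.98 for *PDGFD*, -1.04 to -0.9996 for *PDGFA*, -0.47 to -0.42 for *PDGFRB* and -0.082 to 0.029 for *CSF1*, and the number of members called lower was 5 each time. The number past the fold threshold was 3 without Control replicate 2 and 4 otherwise.

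Control and ATRA libraries share replicate numbers. Deviations from the group means, compared over 9030 genes, correlated at 0.299, -0.0290 and -0.236 between same-numbered libraries. Only 1 of the 3 Control libraries correlated best with its own number. With deviations from a mean of 3 libraries, this cannot tell whether same-numbered libraries share an animal. The numbers were not taken as pairs in the main fit. With the replicate block, the 5 members were called lower as before, with *PDGFRA* at -2.74, *PDGFC* at -2.06, *PDGFD* at -2.03, *PDGFA* at -1.02 and *PDGFRB* at -0.44. Permuting within pairs raises the smallest p of a ratio to 0.25.

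With 3 libraries a group, the smallest p of a ratio is 0.1. *PDGFB*, at 0 to 4 reads, lies below what this depth can compare. Strand is not known, so reads of overlapping genes on the opposite strand cannot be told apart from those of the members.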

Other observations

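The genes next to the members in the RefSeq gene order (assembly ARS1.2) did not follow one direction. *CTSO*, a cathepsin gene beside *PDGFC*, was lower with a log₂FC of -2.90 (SE 0.227), and *DYNC2H1*, a ciliary dynein gene beside *PDGFD*, was lower with a log₂FC of -0.95 (SE 0.0813). *PRKAR1B*, a regulatory subunit gene of protein kinase A beside *PDGFA*, was higher with a log₂FC of 1.43 (SE 0.180), as was the uncharacterized gene on its other side (log₂FC 5.79, SE 0.569). Beside *PDGFB*, which had almost no reads, the chromobox gene *CBX7* was higher (log₂FC 1.96, SE 0.0758) and the ribosomal protein gene *RPL3* was lower (log₂FC -0.78, SE 0.0654). The neighbours of *PDGFRA* were not listed, and those of *PDGFRB* did not pass the filter.

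The deposited annotation places all 6 PDGF genes together in 12 KEGG pathways. Without the members, 63.4% of the 153 tested genes of focal adhesion were lower and 22.9% were higher, and for gap junction 62.3% of 61 were lower and 26.2% were higher. For regulation of actin cytoskeleton 60.3% of 156 were lower and 26.3% were higher. These were the pathways with the largest shares lower. Apart from MAPK signaling, the remaining pathways ran from 45.9% lower (choline metabolism in cancer) to 55.8% lower (melanoma). Among them, PI3K-Akt signaling was at 49.2% and Ras signaling at 50.6%. In the MAPK signaling pathway, which also holds the 6 genes, 42.7% of 220 were lower and 39.5% were higher, close to the 38.7% lower and 40.9% higher over all tested genes. These pathways share genes with each other, and no enrichment was tested.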
